A study of Sus scrofa with 10 samples.

Results

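The 5 genes with the highest mean count in pig loin muscle were RABEP2, SEPTIN1, ENSSSCG00000036235, CTSF and SPSB2, and 4 of them lie on the opposite strand to a gene of fast muscle fibres or glycolysis. The 9 genes described here are those 5, selected on their mean count over the same 10 pigs, and the muscle genes opposite them, which are ATP2A1, ACTN3, TPI1 and MYLPF. Of these 9, 8 have values in the deposited table of 25880 genes. No identifier in the table was paired with MYLPF, so SEPTIN1 is described without its partner, and ENSSSCG00000036235 was paired with neither a symbol nor a position. Since the mean counts chose the genes, their high levels are given as a description and not as a result.

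RNA of the longissimus lumborum, the long loin muscle, was sequenced from 5 Alentejano (AL) and 5 Bísaro (BI) pigs, with 1 library per pig. All were purebred castrated males of Portuguese local breeds, reared free-range on commercial diets and slaughtered near 150 kg. The labels name no treatment, and breed is the only factor that divides them. The comparison asked how muscle transcript levels differ between a fatter breed (AL) and a leaner one (BI). The labels give no batch or date. Reads counted on genes ran from 2298045 in AL44 to 3343194 in BI25, and the 5 high-count genes alone took between 36.6% (AL44) and 48.0% (BI34) of them. The paper reports many more sequenced reads per sample, nearly all aligned. These shares are therefore of the counted reads and not of the library, and why few reads were counted was not tested.

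ATP2A1 encodes SERCA1, the pump that returns calcium to the sarcoplasmic reticulum of fast fibres after each contraction. ACTN3 encodes alpha-actinin-3, which anchors thin filaments at the Z-disc of fast fibres, MYLPF encodes the regulatory light chain of fast myosin, and TPI1 encodes triosephosphate isomerase, an enzyme of glycolysis, the pathway that fuels fast fibres. The partners are known for other work: RABEP2 is a rabaptin that binds RAB GTPases on early endosomes, CTSF is the lysosomal cysteine protease cathepsin F, SPSB2 is a SOCS box protein that brings substrates to a ubiquitin ligase, and SEPTIN1 is a filament-forming GTPase known mainly from lymphocytes.

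In RefSeq's annotation of Sscrofa11.1 all 4 pairs lie tail to tail, with the 3′ ends of the paired genes facing each other. ATP2A1 (chromosome 3, 18545064 to 18568312, plus strand) and RABEP2 (chromosome 3, 18568264 to 18586259, minus strand) overlap by 49 bases, which are exonic and noncoding in both. CTSF (chromosome 2, 5855083 to 5860258, plus strand) and ACTN3 (5860386 to 5873779, minus strand) are 127 bases apart. SPSB2 (chromosome 5, 63836785 to 63839075, plus strand) and TPI1 (63839473 to 63842853, minus strand) are 397 bases apart. SEPTIN1 (chromosome 3, 17924651 to 17937949, plus strand), listed under its older symbol SEPT1, and MYLPF (17938129 to 17941071, minus strand) are 179 bases apart. The authors counted on Ensembl gene models, whose borders can differ from these.

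**Figure D1:**
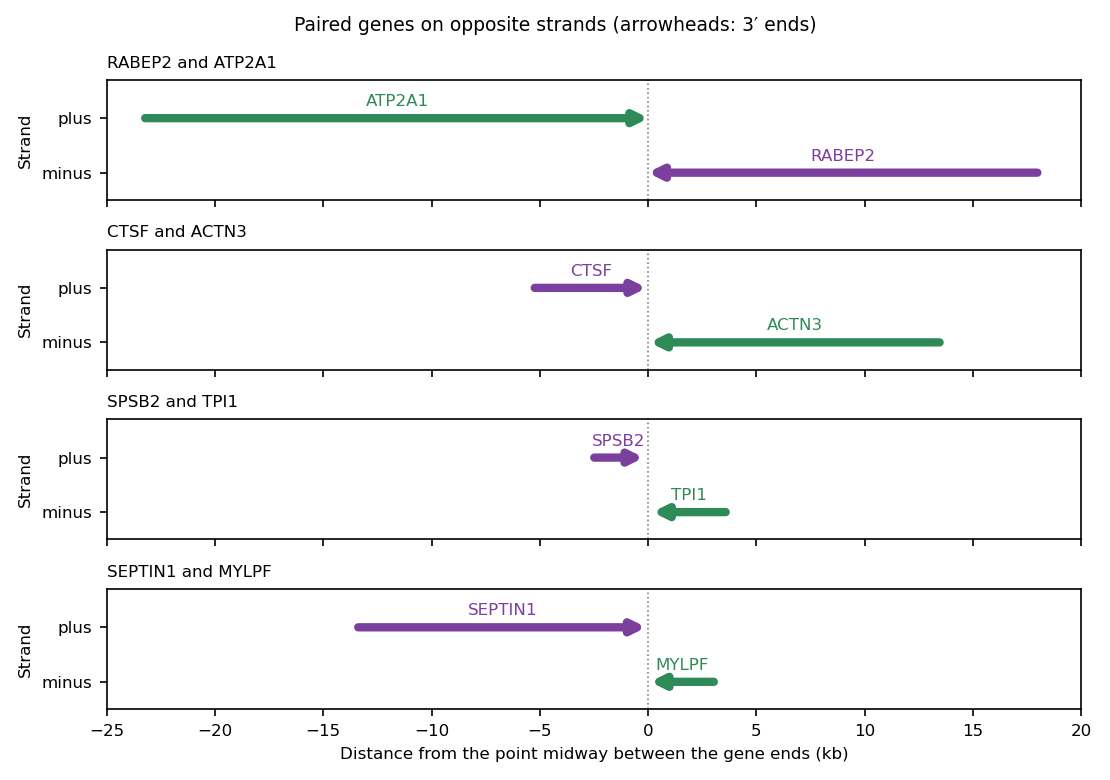
Each row draws 1 pair to scale, with the distance in kb from the point midway between the gene ends on the horizontal axis and the strand on the vertical axis. Purple arrows are the high-count genes, green arrows the muscle genes, and all arrowheads (3′ ends) meet at the dotted line: the ends overlap by 49 bases for RABEP2 and ATP2A1 and lie 127, 397 and 179 bases apart in the rows below.

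The last 30 bases of each gene are printed 5′ to 3′ on the gene's own strand because this is where the paired genes meet. Capitals mark the poly(A) signal AATAAA, a motif that lies shortly before the point where a transcript is cut and tailed. AATAAA and ATTAAA were searched on the gene's strand only.
RABEP2, chr3:18568264-18568293, minus strand: tattttcAATAAAtaagcagctcagctcaa
ATP2A1, chr3:18568283-18568312, plus strand: tattgaaAATAAAtgacagaaaactctggc
CTSF, chr2:5860229-5860258, plus strand: taacacAATAAAgaggtgtcctgggcccca
ACTN3, chr2:5860386-5860415, minus strand: cttctgAATAAAgatccatcggggacctcg
SPSB2, chr5:63839046-63839075, plus strand: cagctacttgactaaagccagaggctgggc
TPI1, chr5:63839473-63839502, minus strand: agcacgaggccaaggaccgagagaaggccc
SEPTIN1, chr3:17937920-17937949, plus strand: gagtttAATAAAaaactgagtttccctgag
MYLPF, chr3:17938129-17938158, minus strand: cctAATAAAttgaatgggtcttgtttctta
The signal was found in 6 of these 8 ends, and AATAAA or ATTAAA was found in the last 30 bases of 54.7% of the 19560 protein-coding genes of the annotation. In both RABEP2 and ATP2A1 17 bases follow it up to the end of the gene, so that the overlap of 49 bases carries the signal of each gene on its own strand. Neither SPSB2 nor TPI1 has these letters in the window.

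The bases between the genes are printed for the pairs of CTSF and SEPTIN1, whose gaps are the shortest of those that do not overlap. Neither gap holds AATAAA or ATTAAA on either strand.
CTSF to ACTN3, chr2:5860259-5860385, plus strand: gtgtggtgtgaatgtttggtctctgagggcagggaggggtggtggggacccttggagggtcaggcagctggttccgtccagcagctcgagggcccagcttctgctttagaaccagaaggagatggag
SEPTIN1 to MYLPF, chr3:17937950-17938128, plus strand: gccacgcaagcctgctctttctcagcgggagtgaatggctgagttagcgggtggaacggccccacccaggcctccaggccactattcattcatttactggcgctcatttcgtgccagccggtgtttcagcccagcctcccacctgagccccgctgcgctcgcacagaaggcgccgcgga
G and C made up 60.6% of the first gap and 63.7% of the second.

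The high-count genes stood far above the muscle genes beside them in every pig. Mean normalised read counts over the 10 pigs (reads divided by a size factor for each library) were 337001 for RABEP2, 325871 for SEPTIN1, 269714 for ENSSSCG00000036235, 153260 for CTSF and 88611 for SPSB2. They were 4718 for ATP2A1, 1394 for ACTN3 and 223 for TPI1, which placed these 3 at ranks 57, 167 and 676 of all genes by mean. Per kb of exon the mean normalised counts were 205338 for SEPTIN1, 84482 for RABEP2, 75800 for SPSB2 and 62760 for CTSF, against 1094 for ATP2A1, 466 for ACTN3 and 193 for TPI1. On this scale the lowest of these high-count genes was still far above the highest muscle gene.

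**Figure D2:**
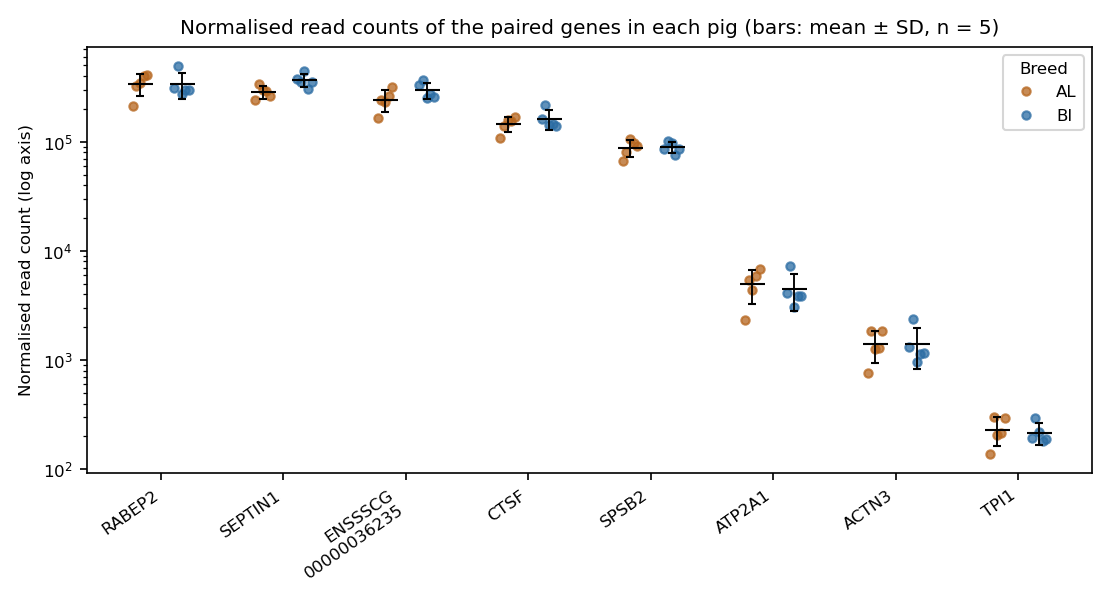
Points are normalised read counts (log axis) of each pig, AL in brown and BI in blue, and bars are the mean ± SD of 5 pigs. The 5 high-count genes lie at 66806 or more in every pig while ATP2A1, ACTN3 and TPI1 lie at 7343 or less, and the breeds overlap in all 8 genes.

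RABEP2, the first gene of the table by mean, had 214064, 323629, 348276, 400576 and 410075 normalised counts in AL44, AL46, AL49, AL52 and AL63. In BI25, BI34, BI36, BI37 and BI42 it had 312224, 489745, 276094, 294678 and 300645. AL44 was the lowest pig and BI34 the highest. Of the other 8, the AL pigs (323629 to 410075) all lay above the BI pigs (276094 to 312224). AL44 and BI34 were set aside here after the values were seen. The means were 339324 ± 78699 in AL and 334677 ± 87665 in BI (SD, n = 5 each).

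ATP2A1, the calcium pump, had 2314, 5419, 4408, 5830 and 6878 normalised counts in the AL pigs in the same order. In the BI pigs it had 4150, 7343, 3086, 3874 and 3882. The extremes were the same pigs as for RABEP2, AL44 at the bottom and BI34 at the top. Without them the AL pigs (4408 to 6878) again all lay above the BI pigs (3086 to 4150). The highest pig stood 3.17 times above the lowest for ATP2A1 and 2.29 times for RABEP2.

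CTSF, the cathepsin, had 108456, 139451, 157284, 153860 and 166701 normalised counts in the AL pigs, and 161646, 219017, 142669, 145284 and 138237 in the BI pigs. ACTN3, the Z-disc protein, had 762, 1845, 1262, 1282 and 1845 in the AL pigs, and 1310, 2378, 959, 1127 and 1172 in the BI pigs. AL44 was again lowest and BI34 highest in both genes. AL46 and AL63 shared the highest ACTN3 values among the AL pigs. CTSF was likewise highest of the AL pigs in AL63, while AL46 had less CTSF than AL49 and AL52.

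SPSB2, the ubiquitin ligase adaptor, had 66806, 79846, 105058, 97117 and 90623 normalised counts in the AL pigs, and 86309, 101795, 97690, 75674 and 85189 in the BI pigs. TPI1, the glycolytic enzyme, had 138, 298, 204, 217 and 295 in the AL pigs, and 194, 296, 218, 181 and 188 in the BI pigs. AL44 was lowest for both, but the highest pig differed, AL49 for SPSB2 and AL46 for TPI1. TPI1 rested on 146 to 321 reads per pig, so its values carry more counting error than those of the other genes.

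SEPTIN1 had 239469, 339218, 298973, 292395 and 261125 normalised counts in the AL pigs. In the BI pigs it had 377623, 348691, 442929, 305474 and 352813. All but 1 of the BI pigs lay above every AL pig, the exception being BI37, which lay below AL46. ENSSSCG00000036235 had 165337, 238741, 233345, 261918 and 317157 in the AL pigs, and 330378, 366756, 249925, 276410 and 257179 in the BI pigs. For this gene BI25 and BI34 lay above all AL pigs, and the other 3 BI pigs lay within the AL range.

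AL44 was the lowest of the 10 pigs in 8 of the 8 genes, and BI34 was the highest in 5 of them. The same pigs stood at the ends of the muscle markers, of which 5 of the 9 listed had values, ACTA1 with the highest mean. The summed normalised count of ACTA1, CKM, DES, NEB and CA3 was 8368 in AL44 and 30446 in BI34. It was between 15249 and 21960 in the other 8. Summed counts of 6 genes of slow muscle fibres went the other way, with 1078 in AL44 and 487 in BI34. AL44 also had the fewest reads on genes and the lowest share of reads in the 5 high-count genes. In bulk tissue, fewer cells of a type and less RNA per cell cannot be told apart, and the part of muscle content in the counts of the paired genes was not tested.

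AL and BI did not differ detectably in any of the 8 genes. Limma was run on log2(value + 1) over the 1513 genes whose mean reached 50 in both breeds. It called 0 of the 8 at an adjusted p under 0.05, and 0% of all genes tested. At an unadjusted p under 0.05 limma had 112 of the 1513 genes, and of the other tools run over the same genes, edgeR called 0 and DESeq2 16 after adjustment, none of them among the 8. None of the 8 had values that kept the breeds apart, against 1.45% of all genes tested.

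The largest difference among the 8 was that of SEPTIN1, the septin, with 286236 ± 38161 in AL and 365506 ± 50470 in BI (SD, n = 5 each). Its log2 fold change of AL against BI was -0.35 (SE 0.17, limma adjusted p = 0.654). The exact two-sided permutation test of this gene alone gave p = 0.0159, unadjusted, where the smallest p that 5 against 5 pigs allow is 0.00794. Without 1 pig at a time the log2 fold change ran from -0.42 to -0.28, lower in AL each time. ENSSSCG00000036235 followed, with 243300 ± 54771 in AL and 296129 ± 50502 in BI, a log2 fold change of -0.30 (SE 0.20, limma adjusted p = 0.771) and an exact permutation p = 0.143. Without 1 pig at a time its log2 fold change ran from -0.40 (without AL63) to -0.17 (without AL44).

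The paired genes showed smaller differences on the log2 scale. The log2 fold changes of AL against BI were 0.02 (SE 0.22) for RABEP2 and 0.13 (SE 0.29) for ATP2A1. CTSF had 145150 ± 22729 in AL and 161371 ± 33417 in BI, a log2 fold change of -0.15 (SE 0.18), and ACTN3 had 1399 ± 457 and 1390 ± 567, a log2 fold change of 0.02 (SE 0.27). For SPSB2 the means were 87890 ± 14971 and 89331 ± 10465, a log2 fold change of -0.03 (SE 0.16), and for TPI1 they were 230.5 ± 67.6 and 215.5 ± 47.3, a log2 fold change of 0.07 (SE 0.22). Limma's adjusted p for these 6 genes lay between 0.875 (CTSF) and 0.983 (ACTN3), and all 6 differences were smaller than their standard error. The sign of 5 of these 6 turned when single pigs were left out; CTSF kept its sign.

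The ratio of the paired genes within a pig does not depend on the size factor of the library. RABEP2 had 92.5, 59.7, 79.0, 68.7 and 59.6 reads per read of ATP2A1 in AL44, AL46, AL49, AL52 and AL63, and 75.2, 66.7, 89.5, 76.1 and 77.5 in BI25, BI34, BI36, BI37 and BI42. The means were 71.9 ± 14.0 in AL and 77.0 ± 8.15 in BI (SD, n = 5 each), and the highest ratio was 1.55 times the lowest. ATP2A1 thus made up between 1.07% (95% Wilson interval 1.03 to 1.11) of the reads of its pair in AL44 and 1.65% (1.61 to 1.69) in AL63. These intervals cover counting error only, and they are narrow beside the spread between pigs.

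CTSF had 142.4, 75.6, 124.6, 120 and 90.4 reads per read of ACTN3 in the AL pigs, and 123.3, 92.1, 148.7, 128.9 and 117.9 in the BI pigs. The means were 110.6 ± 27.1 in AL and 122.2 ± 20.5 in BI, and the range of 1.97 times was wider than for RABEP2 and ATP2A1. ACTN3 made up between 0.668% (95% Wilson interval 0.630 to 0.708) of the reads of its pair in BI36 and 1.31% (1.25 to 1.36) in AL46.

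SPSB2 had 484.7, 267.6, 515.2, 447.5 and 307.0 reads per read of TPI1 in the AL pigs, and 445.9, 343.6, 447.9, 417.2 and 453.1 in the BI pigs. The means were 404.4 ± 110.4 in AL and 421.5 ± 45.8 in BI. The AL pigs fell into a low pair, AL46 and AL63, and 3 higher values, while all BI pigs but BI34 lay between 417 and 453. TPI1 made up between 0.194% (95% Wilson interval 0.168 to 0.223) of the reads of its pair in AL49 and 0.372% (0.334 to 0.415) in AL46.

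**Figure D3:**
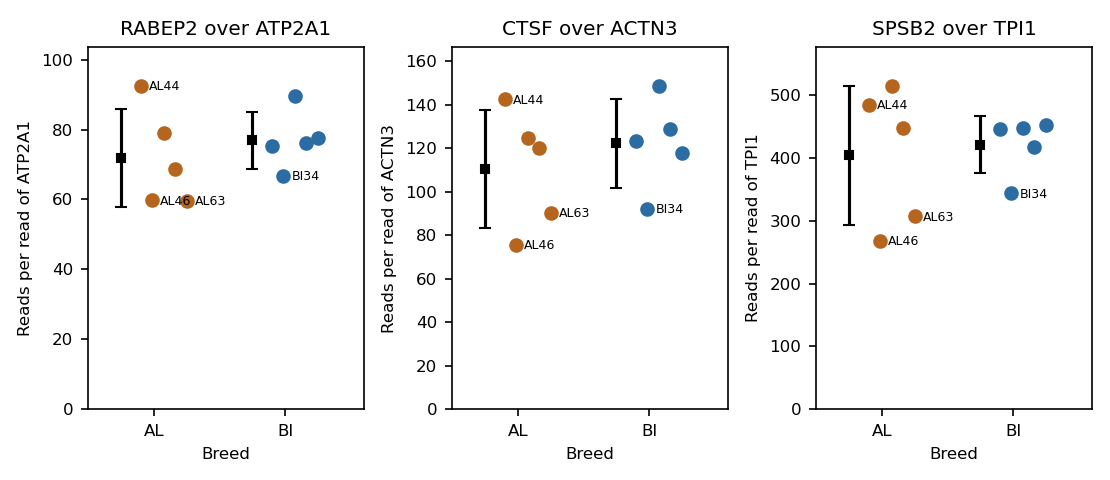
Each panel gives the reads of the high-count gene per read of its muscle partner (vertical axis from 0) for the 5 pigs of each breed, with black squares and bars for the mean ± SD; the pigs AL44, AL46, AL63 and BI34 are labelled. AL46, AL63 and BI34 have the 3 lowest ratios in all 3 panels, and AL44 is among the 3 highest in each.

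The same pigs were low in every ratio. AL46, AL63 and BI34 had the 3 lowest ratios in all 3 pairs, and AL44 was among the 3 highest in all 3. The summed normalised count of the 5 muscle markers was highest in BI34 (30446), AL63 (21960) and AL46 (21549), and lowest in AL44 (8368). High muscle marker counts and low ratios thus fell in the same pigs, and the part of one in the other was not tested.

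AL and BI did not differ detectably in the ratios. Over 186 pairs of opposite-strand neighbours within 5 kb, both genes with means that reached 50 in both breeds, limma called the log2 ratio of 1.08% of the pairs, and 0 of the 3 described. The log2 difference of the ratio, AL minus BI, was -0.11 (SE 0.15, limma adjusted p = 0.867; exact permutation p = 0.413) for RABEP2 over ATP2A1. It was -0.16 (SE 0.19, limma adjusted p = 0.830; exact permutation p = 0.397) for CTSF over ACTN3, and -0.10 (SE 0.19, limma adjusted p = 0.902; exact permutation p = 0.667) for SPSB2 over TPI1. All 3 values were below 0, and that of SPSB2 over TPI1 turned to 0.04 without AL46.

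Within the breeds, RABEP2 and ATP2A1 rose and fell together from pig to pig. After the breed mean was subtracted from the log2 values, Pearson's r over the 10 pigs was 0.966 (exact permutation within breeds, p = 0.00146; adjusted over the 186 pairs, 0.0301) and Spearman's rho 0.964 (permutation p = 7.64e-04). Both genes put 9 of the 10 pairs of AL pigs and 10 of the 10 pairs of BI pigs in the same order. Without AL44 and BI34, the pigs farthest from the median of the breed-centred ATP2A1 values, r was 0.743 (exact permutation p = 0.0642, n = 8), so that part of the relation rested on them. Leaving out 1 pig at a time kept r between 0.932 and 0.984, with adjusted p from 0.0323 to 0.123; the test kept under 0.05 only without AL46 or AL49. These correlations were known when the pairs were taken up, so the p-values are not independent support.

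CTSF and ACTN3 had r = 0.865 (exact permutation p = 0.0167; adjusted over the 186 pairs, 0.115) and rho = 0.794 (permutation p = 0.0152). The genes put 6 of the 10 pairs of AL pigs and 8 of the 10 pairs of BI pigs in the same order. Without AL44 and BI34, r was 0.120 (exact permutation p = 0.847, n = 8), so the relation rested on those pigs. SPSB2 and TPI1 had r = 0.544 (exact permutation p = 0.166; adjusted over the 186 pairs, 0.497) and rho = 0.564 (permutation p = 0.115), which turned to r = -0.38 (exact permutation p = 0.446, n = 8) without the same pigs and to r = -0.18 when the share of all reads on genes replaced the normalised counts. Their order was the same in 10 of the 10 pairs of BI pigs and in 4 of the 10 pairs of AL pigs. Over all 186 pairs the median r was 0.26, and 6.99% had a positive r with an adjusted p under 0.05. Of the 3 described pairs, 1 was among these.

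**Figure D4:**
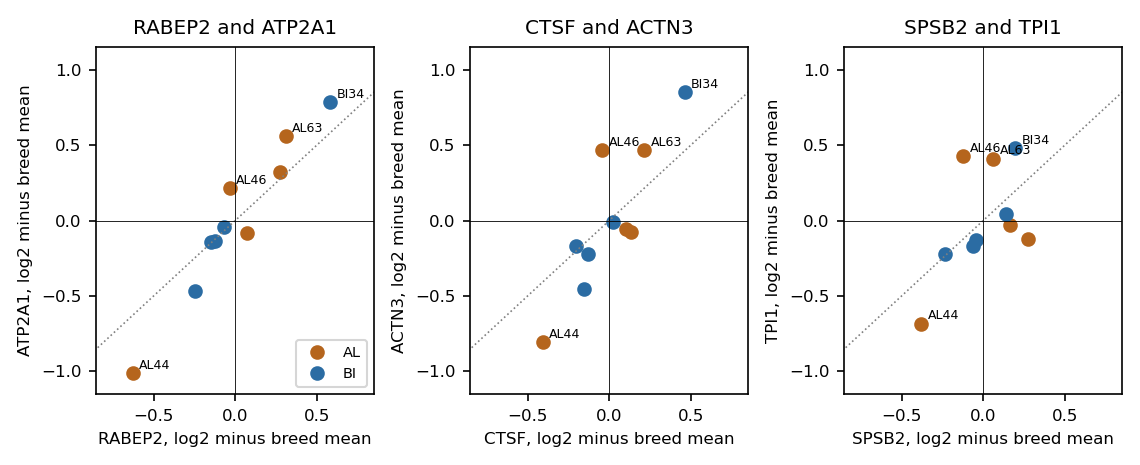
Each point is a pig, AL in brown and BI in blue, placed by the log2 value of the high-count gene (horizontal axis) and of its muscle partner (vertical axis), each minus its breed mean; the dotted line marks equal deviations. Of the labelled pigs, AL44 lies in the lower left quadrant and BI34 in the upper right quadrant of every panel, and AL46 and AL63 lie above the dotted line in all 3 panels.

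The muscle gene varied more than its partner in each pair. The SD of log2 values within the breeds was 0.54 in ATP2A1 and 0.36 in RABEP2. ACTN3 and CTSF had SDs of 0.51 and 0.26, and TPI1 and SPSB2 of 0.38 and 0.22. The muscle gene made larger excursions than its partner in AL44, where all 3 ratios were high, and in BI34, where all 3 were low.

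The likeness was not held to the paired gene. Of the other 1512 genes tested, ATP2A1 ranked 2nd by r with RABEP2, behind PLEKHM2 (r = 0.966) and just ahead of CTSF (r = 0.963). For CTSF the first 3 were RABEP2 (0.963), ATP2A1 (0.908) and PLEKHM2 (0.907), and its partner ACTN3 ranked 15th. ACTN3 was closer to TPI1 (r = 0.91) and ATP2A1 (r = 0.94) than to CTSF. For SPSB2 the first 3 were RUVBL2 (0.935), SLC25A35 (0.863) and RPAIN (0.85), and TPI1 ranked 167th.

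ENSSSCG00000036235 went with the pairs of RABEP2 and CTSF and SEPTIN1 did not. The unnamed gene had r = 0.936 with ATP2A1, 0.907 with RABEP2 and 0.901 with CTSF, and its first 3 genes were SYN1 (0.946), NFIX (0.940) and CRB2 (0.937). SEPTIN1 had r = 0.11 with RABEP2, 0.12 with CTSF, 0.12 with ATP2A1 and 0.08 with ENSSSCG00000036235. Its first 3 were ENSSSCG00000007304 (0.905), CAND2 (0.881) and MOV10 (0.872). Of the other 1512 genes tested, 0.99% had r over 0.9 with RABEP2, 0.40% with CTSF and 0.86% with ENSSSCG00000036235. In the same order these were 15, 6 and 13 genes, while 25, 17 and 10 genes had r under -0.9. These correlations are descriptions over 10 pigs that share libraries and size factors. They take in AL44 and BI34, and apart from the described pairs r was not computed without those pigs.

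Among opposite-strand neighbours in general, the described pairs lay at the unequal end. By the ratio of mean normalised counts SPSB2 and TPI1 (397) ranked 2nd of the 186 pairs, CTSF and ACTN3 (109.9) ranked 7th, and RABEP2 and ATP2A1 (71.4) ranked 15th, where the median ratio was 3.46 and 20 pairs exceeded 50. By r they ranked 52nd, 15th and 1st. Of the 186 pairs 152 lay tail to tail (81.7%), and the 13 pairs with a positive r past the threshold were all tail to tail. Of all 9114 annotated opposite-strand neighbours within 5 kb, 3517 lay tail to tail (38.6%). Those take in genes of any type, also without values or with low counts, so the shares are of unlike sets and were not compared. The ratio ranks follow from how the genes were chosen.

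**Figure D5:**
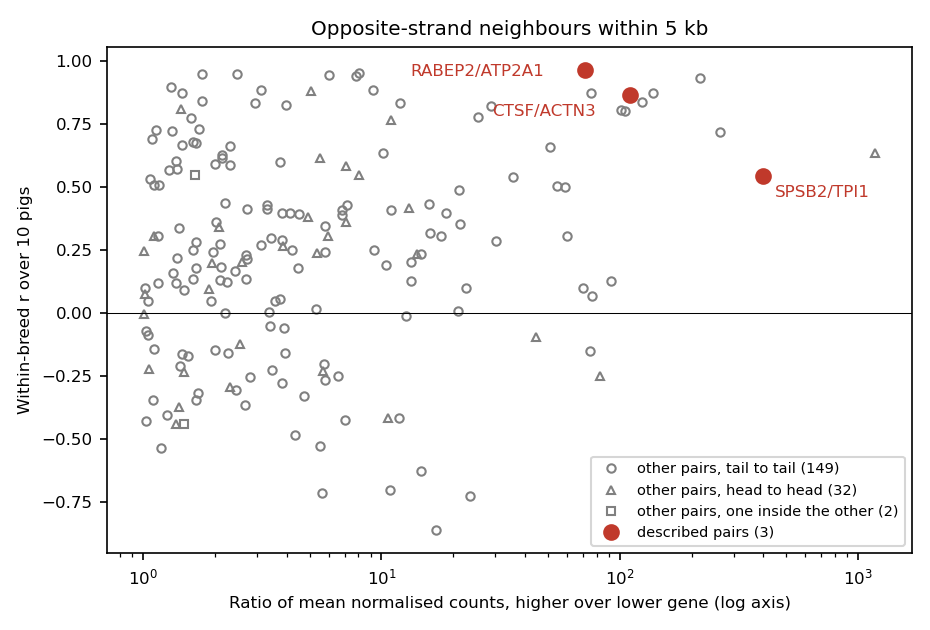
Each symbol is 1 of 186 pairs of opposite-strand neighbours, placed by the ratio of mean normalised counts of the higher over the lower gene (log axis) and by r of the breed-centred log2 values over 10 pigs; symbol shapes give the orientation and red marks the 3 described pairs. The described pairs have ratios of 71.4, 109.9 and 397, against a median of 3.46, and RABEP2/ATP2A1 has the highest r.

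Other opposite-strand neighbours of the 9 genes within 5 kb were low. ZNF48 overlaps the head of SEPTIN1 by 943 bases and had a mean of 4.05 normalised counts, USP5 near SPSB2 had 13.1, and TBC1D10B near MYLPF had 51.8. LRRC23, whose start lies 155 bases from that of SPSB2, was at 0 reads in all pigs, with the limit of 3 reads per pig that a count of 0 allows, and ZDHHC24 near ACTN3 was not analysed here. The libraries were stranded, and the strand setting of the counting is not given in the sources used here. Reads of the high-count genes and of transcripts from the opposite strand therefore cannot be told apart in these values, and their strand was not tested.

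Relatives of the high-count genes were far lower on the scale of mean normalised count per kb of exon. CTSF had 62760 per kb while CTSW, the cathepsin of cytotoxic lymphocytes, had 302 and CTSD, the lysosomal aspartic protease, had 13.6. SEPTIN1 had 205338 per kb, SEPTIN2 had 20.6 and SEPTIN9 had 2.23. SPSB2 had 75800 per kb, SPSB3 had 35.4 and SPSB1 had 0.09. RABEP2 had 84482 per kb, RABEP1, the founding rabaptin, had 6.41, and the early endosome GTPase RAB5C had 6.47. Of the 12 cathepsins, 12 septins, 4 SPSB genes and 7 rabaptin and early endosome genes with values, 2 of each passed the filter on low counts, and 0 of these 8 were called in either direction.

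Of 8 markers of leukocytes, the cells in which SEPTIN1 is known, 6 were near 0. CD3E and CD2, which define T cells, were at 0 in all pigs, which allows up to 3 reads or 2.47 to 3.39 normalised counts per pig (counting error only), and CD3D, LCK, PTPRC and LCP1 averaged at most 0.316 normalised counts. The other two were measured in every pig, CORO1A with a mean of 443 and CD74 with a mean of 102. The sum over the 8 markers was between 504 and 535 in AL and between 531 and 665 in BI, against 325871 for SEPTIN1 alone. Summed markers of adipocytes (5 genes), red blood cells (2 genes) and endothelium (2 genes) were at most 28.5 in any pig. ACTA1, the actin of skeletal muscle, had a mean of 12496, CKM 4184 and DES 1334, so the defining markers of the labelled muscle were present.

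The other genes of fast fibres and glycolysis showed the levels beside which the muscle partners stand. Of the 14 fast fibre genes 10 had values and 9 were tested, and limma called 0, with a median log2 fold change of -0.12 against -0.05 over all genes. TNNT3, the fast troponin T, had a mean of 10732 normalised counts and a log2 fold change of -0.47 (SE 0.16, limma adjusted p = 0.381). It was the only fast gene with an unadjusted limma p under 0.05, where 112 of all 1513 genes tested had one. TNNI2, the fast inhibitory troponin, had a mean of 2649 and a log2 fold change of -0.37 (SE 0.19, limma adjusted p = 0.684). Per kb of exon TNNC2 (4462), TNNI2 (3907) and TNNT3 (2765) exceeded ATP2A1 (1094) and ACTN3 (466).

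Of the 12 glycolysis and glycogen genes 11 were tested and limma called 0, with a median log2 fold change of -0.11. ALDOA, the aldolase of muscle, had 1087 mean normalised counts per kb, ENO3, the muscle enolase, 1683, and GAPDH 849, against 193 for TPI1. TPI1 was the only gene of the 11 with a positive log2 fold change. Of the 10 slow fibre genes 6 had values and 4 were tested, and limma called 0, with a median log2 fold change of 0.75. All 4 had an unadjusted limma p under 0.05, as did 112 of all 1513 genes tested, of which none was called after adjustment. TNNT1, the slow troponin T, had 387 ± 122 in AL and 229 ± 52.9 in BI (limma adjusted p = 0.336). Means of ATP2A2, the calcium pump of slow fibres, were 280.0 ± 115.4 in AL and 149.1 ± 31.4 in BI (limma adjusted p = 0.501), and those of TNNI1, the slow inhibitory troponin, were 154.2 ± 45.4 and 96.0 ± 33.3 (limma adjusted p = 0.489).

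A higher opposite-strand neighbour was found for some of these muscle genes and not for others. Among fast fibre genes 4 of 10 had a neighbour with values within 5 kb, and it was higher for 2, ATP2A1 and ACTN3. Among the glycolysis genes 6 of 11 had such a neighbour and it was higher for 2, TPI1 and PGK1 (67.2 normalised counts, neighbour TAF9B 391). ATP2A1, ACTN3 and TPI1 were taken up because they lie opposite a high-count gene, so their higher neighbours follow from that choice. Outside them, PGK1 alone of the fast fibre and glycolysis genes with a measured neighbour had a higher one. The annotated neighbours of TNNT3, MYL1, MYBPC2, ALDOA and PKM had no values, so this could not be judged for them. MYLPF lies opposite SEPTIN1 but has no value of its own. For the slow fibre genes it was higher for 0 of 2, NISCH beside TNNC1 (1.92) and ANAPC7 beside ATP2A2 (1.16). GAPDH (4003) lay opposite IFFO1 (41.7), and CKM (4184) lay opposite MARK4 (29.1).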

How the data were processed

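Loin muscle libraries of 10 pigs, 1 per pig, were stranded paired-end mRNA libraries. Per the labels and the study's methods, the authors used Trim Galore 0.5.0 to trim reads, HISAT2 2.1.0 to align them to Sscrofa11.1, and HTSeq 0.11.1 to count them per gene of Ensembl release 94, and divided each count by a DESeq2 size factor. The deposited values are thus a normalised signal; the fold changes, p-values and statistics of the authors' own comparison stand beside them and were not used. Each value divided by its pig's smallest value above 0 gave whole reads (within 0.01) for 100% of values. Of 25880 identifiers 14857 were paired with a symbol and 13557 with a RefSeq gene of the same build.

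Limma 3.58.1 (trend, R 4.3.3) tested log2(value + 1), and log2 ratios of pairs, with Benjamini-Hochberg adjustment over all genes or pairs. Correlations used breed-centred log2 values and all 14400 permutations within the breeds. Exact tests were two-sided. Genes entered the tests when their mean reached 50 in both breeds. Alternatives were pseudocounts of 0.1 and 10, other filters, scalings and a window of 1 kb, edgeR 4.0.16 and DESeq2 1.42.0 on the recovered reads, Spearman's rho, and each pig left out. The tests were tested on simulated data. The members and gene lists were chosen with earlier results of these data known. The named genes were the 9 members, their opposite-strand neighbours, the 3 genes with the highest r for each high-count gene, and the 3 highest genes of each list; others were named after their values were seen. P-values set the breed differences and correlations against the variation between these pigs.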

Additional observations from a re-analysis of the deposited data

Results flagged for a closer look

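Sets of 5 values were examined, 22 in all (8 genes and 3 ratios in each breed). Dixon's ratio is the gap from a pig to the nearest other, divided by the range of the 5 values. It exceeded its 95% critical value in 4 sets, and chance flags about 1 set in 20. All 4 were BI34 among the BI pigs. Its normalised count was 489745 for RABEP2, where the next BI pig had 312224, and 7343 for ATP2A1, where the next had 4150. It was 219017 for CTSF against 161646, only just past the critical value, and 2378 for ACTN3 against 1310. The 4 genes are 2 pairs, and their values come from 1 library, so they are not separate observations.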

How the results depend on the processing

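No paired analysis was possible because the AL and BI pigs share no animal number. None of the 8 genes was called under any of the 18 alternatives. Over all genes tested, calls were 16 with DESeq2, 1 when a mean of 50 in either breed sufficed, 40 with no filter on low counts, and 0 to 1 with a pig left out. The log2 fold change of SPSB2 was 0.0135 with edgeR and TMM. Without single pigs, log2 fold changes ran from -0.0607 to 0.174 (RABEP2), -0.0101 to 0.383 (ATP2A1), -0.10 to 0.23 (ACTN3), -0.102 to 0.0613 (SPSB2) and -0.0400 to 0.237 (TPI1). Pair ratios called were 1 with a minimum of 10 and within 1 kb, and 1 to 2 without single pigs; the log2 difference of SPSB2 over TPI1 ran from -0.199 (without AL49) to 0.0370 (without AL46). Covariation past the threshold held for 13 pairs in the main test and 18 on shares of all reads on genes. It held for 15 pairs when values were scaled to genes outside the 10 highest. With Spearman's rho it held for 8, and without single pigs for 0 to 9 (0 without AL44 or BI34). The r of RABEP2 with ATP2A1 ran from 0.932 to 0.984 without single pigs and lost the call without any of 8 pigs. On shares of all reads on genes, r was 0.749 for CTSF with ACTN3 and -0.179 for SPSB2 with TPI1. Fewer pigs allow fewer permutations, which raises the smallest p; other causes were not tested. TPI1, at 146 to 321 reads, is limited by depth.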

Other observations

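The summed normalised count of the 6 slow fibre genes with values was 1078 in AL44 and 487 in BI34, ranks 9 and 2 of the 10 pigs from the lowest. Fast fibre genes (10 with values, ATP2A1 and ACTN3 among them) summed to 15101 in AL44 and 35396 in BI34, the lowest and the highest. AL63 and BI36 did not show this opposition: the slow fibre sum was highest in AL63 (1449) and lowest in BI36 (447), while the fast fibre sum was 27374 in AL63, rank 9, and 24057 in BI36, rank 4.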
